A study of Mus musculus with 4 samples.

Results

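Transcripts of the exocrine and endocrine pancreas were examined in the livers of mice made obese by diet (DIO mice), where they are not part of the usual hepatocyte programme. The set held 42 genes, 35 of the exocrine pancreas and 7 hormones of the islets and the gut. The genes were chosen by name with the log ratios of these arrays already in view, so all ratios below describe the members and carry no test. Of the 42 genes, 37 had at least 1 probe under that name, with 45 of the 41037 probes that had a value on all arrays. No probe carried the names Iapp, Prss1, Try4, Try10 or Amy2b.

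Male C57BL/6J mice bought at 8 weeks of age received high-fat chow over 14 weeks until they weighed at least 40 g, and the diet continued in all groups. Porcine GALP (galanin-like peptide, a hypothalamic neuropeptide) at a stated 1 nmol in saline with 5% α-cyclodextrin, or saline, was given into the nose in 2 µL once daily for 11 days. RNA of powdered liver was pooled from the 4 GALP-treated mice that lost more weight, from the 4 that lost less, and from 8 mice on saline. Each GALP pool was hybridised against the saline pool on 2 arrays in opposite dye orientations (Cy3 and Cy5), so that 4 arrays of 60-mer probes were run. Values belong to pools, so a single animal within a pool cannot be seen, and the GALP mice were divided by their own weight loss. Whether the saline of the controls held α-cyclodextrin is not given in the sources used here. The saline pool is 1 sample common to all 4 arrays, and its own spread enters no test.

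Acinar cells of the pancreas make digestive enzymes in very large amounts, mostly as inactive zymogens, and store them in zymogen granules until a meal. Islet cells release peptide hormones, with insulin from the beta cells as the most abundant. Transcription of many acinar enzyme genes depends on PTF1, a trimeric complex that binds an E-box (CANNTG) together with a nearby TTTCCC-type box.

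The probes show what was measured. Of the 45 member probes, 9 spanned more of the mm9 genome than their own length, so their 60 bases join 2 exons and match spliced RNA. An elastase, a trypsinogen and an amylase probe of this kind are printed 5′ to 3′ with the mm9 positions of their outer ends, because these genes had high control signals.
Cela3b probe, chr4:136976994-136977861, minus strand: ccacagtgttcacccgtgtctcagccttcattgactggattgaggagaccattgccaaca
Try5 probe, chr6:41261785-41262201, minus strand: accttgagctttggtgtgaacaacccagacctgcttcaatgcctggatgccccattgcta
Amy2a5 probe, chr3:113089625-113091350, minus strand: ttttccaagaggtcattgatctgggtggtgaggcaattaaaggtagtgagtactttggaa
The 4 trypsinogen genes with a probe lay within 492 kb of chromosome 6 (mm9), and such close copies may share labelled RNA. Between probes of different trypsinogens the identity over the best ungapped overlap ranged from 37.1% to 81.0%. For the insulin genes it was 40.4% and 78.1%. These values set probes against each other and not against the RNA of the other copy, so they cannot show whether copies share signal. The division of signal between copies is uncertain.

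Promoters of 3 enzymes are printed to show the acinar type of regulatory sequence, with RefSeq start sites on GRCm38.p6, 250 bases before and 50 after the start. Capitals mark the E-box and the TTTCCC-type box of each match. The genes were picked after the search because both spellings of the box matched in them.
Cpa1 promoter, chr6:30638968-30639267, plus strand: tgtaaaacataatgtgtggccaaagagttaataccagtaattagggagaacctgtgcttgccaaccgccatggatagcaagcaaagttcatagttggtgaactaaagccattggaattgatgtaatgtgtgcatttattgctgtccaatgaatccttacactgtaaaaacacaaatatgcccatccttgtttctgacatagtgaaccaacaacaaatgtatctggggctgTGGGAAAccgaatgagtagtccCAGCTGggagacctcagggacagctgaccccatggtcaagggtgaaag
Ctrb1 promoter, chr8:111690961-111691260, minus strand: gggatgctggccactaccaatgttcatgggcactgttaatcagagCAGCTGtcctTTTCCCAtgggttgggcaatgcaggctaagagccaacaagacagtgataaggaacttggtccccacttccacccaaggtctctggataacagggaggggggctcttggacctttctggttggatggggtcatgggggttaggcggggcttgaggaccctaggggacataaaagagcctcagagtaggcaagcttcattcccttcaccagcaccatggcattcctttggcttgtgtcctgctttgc
Cel promoter, chr2:28563354-28563653, minus strand: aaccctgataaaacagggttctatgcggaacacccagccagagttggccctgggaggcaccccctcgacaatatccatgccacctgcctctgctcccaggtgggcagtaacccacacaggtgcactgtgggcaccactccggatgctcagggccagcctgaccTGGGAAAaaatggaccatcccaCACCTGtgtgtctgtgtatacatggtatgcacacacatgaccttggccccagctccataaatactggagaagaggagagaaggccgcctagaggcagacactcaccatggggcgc
In Cpa1 and Cel the match is on the opposite strand of the printed sequence. The marked stretch of Cpa1 begins 20 bases before the annotated start site and is 28 bases long. Its E-box, at the end of that stretch, therefore lies past the start. Those of Ctrb1 and Cel begin 205 and 87 bases before the start and end before it. The table held 36 promoters for 35 of the 42 genes. On both strands, CANNTG followed after 3 to 24 bases by TTTCCC was found in 5 of the 36 member promoters and in 2.56% of all 32851 promoters. With TTCCCA, which overlaps the former box, the counts were 10 of 36 and 2.74%. Alone, TTTCCC was present in 30.6% of member promoters and 25.2% of all, TTCCCA in 58.3% and 25.6%, and CACCTG, a common form of the E-box, in 50% and 20.2%. These spellings were among several searched. A match is a description of the letters and not of binding.

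Across the array, a single channel had 40.5% to 46.7% of its spots well above background, and no spot was saturated. All 9 hepatocyte genes with a probe were well above background in every control channel, with median log2 ratios of 0.00 and -0.02 in the greater and less weight loss pools. The arrays of a pool carry the same extracts, so their difference shows technical error. Their log2 ratios correlated at 0.54 for the greater and 0.26 for the less weight loss pool over 14445 probes well above background in all channels. Without the member probes the former was 0.38, below the 0.54 and 0.45 between arrays of different pools in the same dye orientation. Over all probes the correlations within a pool were -0.14 and -0.15, and 29.6% to 35.3% of spots had a ratio set to 0.

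The main observation was a change of direction between the pools. Exocrine transcripts were far lower than in the saline pool in the mice with greater weight loss, and somewhat higher than in the saline pool in the mice with less weight loss. Of 45 member probes, 36 were called lower in the greater weight loss pool and 0 higher. A call here required a fold over 1.5 or under 0.75 in the mean of the 2 arrays of a pool. Each array also had to have the same direction and a p-value of the scanner software under 0.01. Over all 41037 probes, 0.395% were called lower and 0.292% higher in that pool. For the less weight loss pool 27 of 45 member probes were called higher and 0 lower, against 0.234% higher and 0.363% lower over all probes. The members were chosen with these ratios known, so nothing is read from the excess, here or in the counts by gene group below. In both pools together 0 of 45 were called lower and 0 higher, against 0.132% and 0.0585% of all probes.

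**Figure D1:**
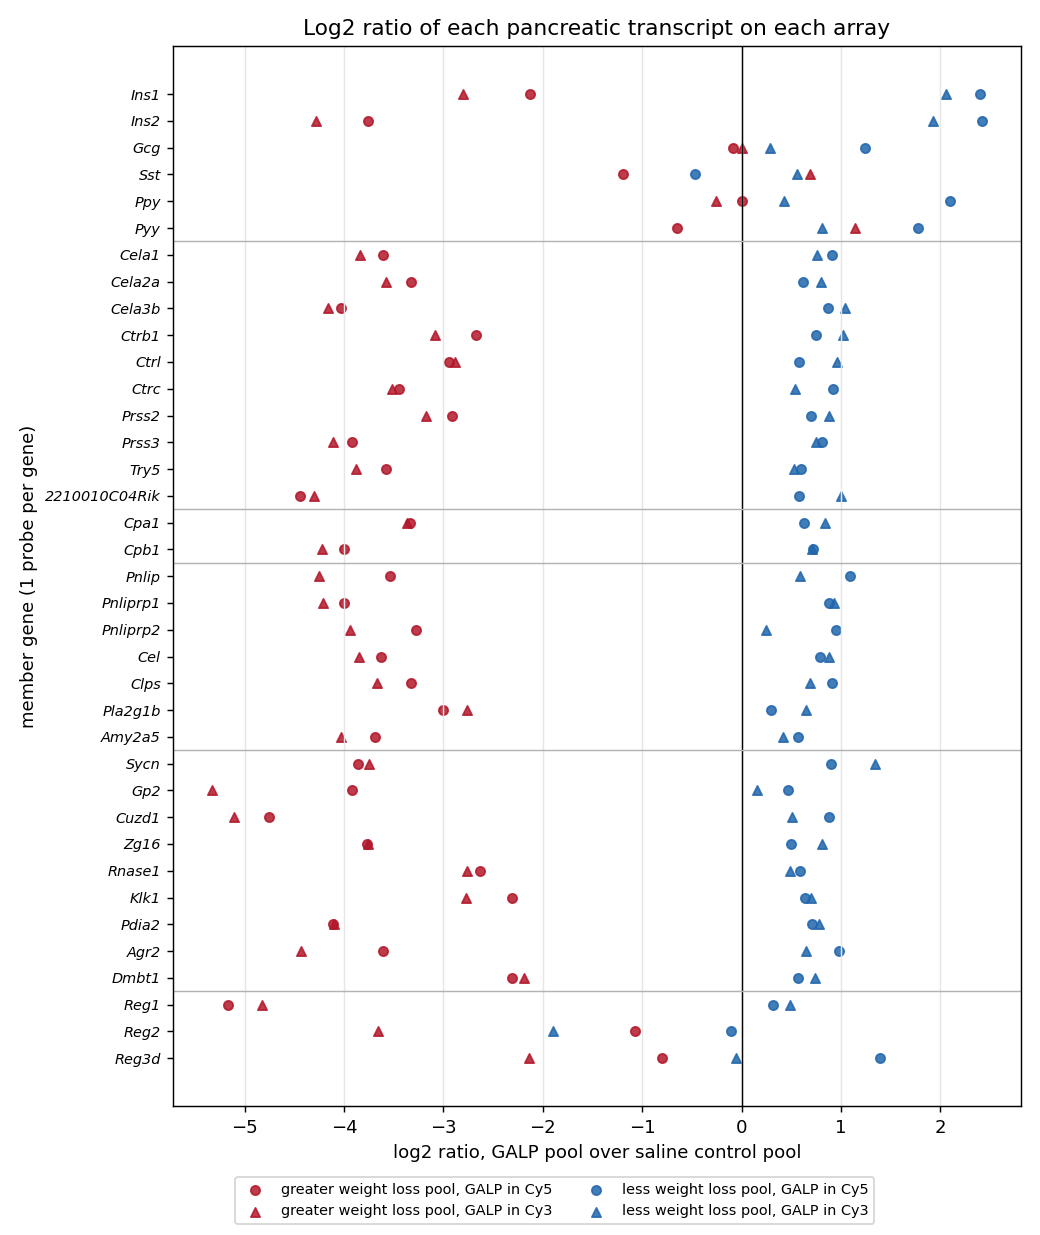
Log2 ratio of GALP pool over saline control pool (x axis) for the 37 member genes with a probe (y axis), 1 point per array, with colour for the pool and shape for the dye orientation. Grey lines part the groups. Apart from Reg2 and Reg3d, the pool means of exocrine genes lay between -5.00 and -2.25 in the greater and between 0.31 and 1.12 in the less weight loss pool, whereas Gcg, Sst, Ppy, Pyy, Reg2 and Reg3d scattered between dyes.

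Of the 31 exocrine genes with a probe, 30 were well above background in at least 1 channel. Their median log2 ratio was -3.73 in the greater weight loss pool (range -5.00 to -2.25) and 0.73 in the less weight loss pool (range -1.01 to 1.12). With limits in place of ratios for the 5 exocrine genes at background in the greater weight loss pool, the median there was -3.52. Over all 16320 gene names with signal both medians were 0.00. With normexp background correction, which adds an offset to each signal, the median over all 34 members with signal was -2.67 in place of -3.73 in the greater weight loss pool. In liver homogenate fewer cells of a type and less RNA per cell cannot be told apart.

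The summed signal of the 31 exocrine probes was similar in all 4 control channels, from 303877 to 379705 units. In the greater weight loss pool it was 31519 and 23783 units, or 8.30% and 7.43% of the control channel of the same array. The less weight loss pool gave 540866 and 532479 units, or 168% and 175% of the control channel. No labelled pancreas sample was part of the arrays, and the part of carried-over tissue in these signals was not tested.

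**Figure D2:**
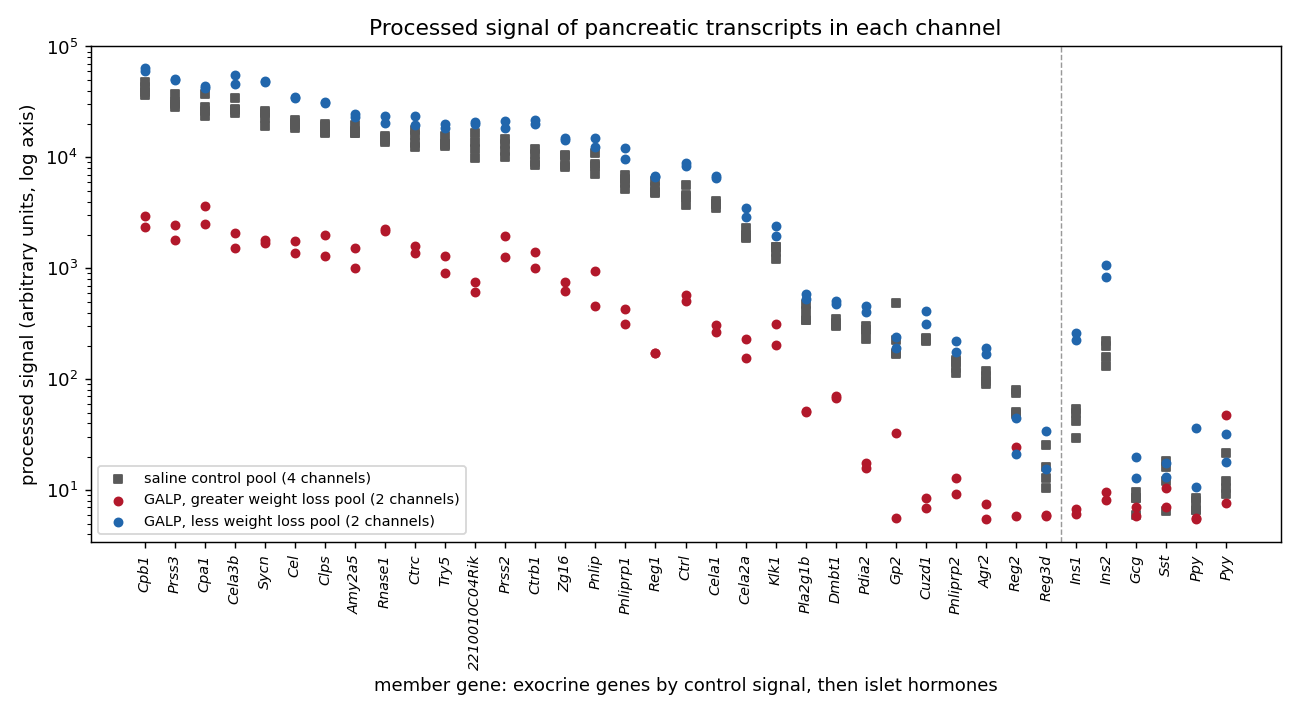
Processed signal in each of 8 channels (log axis, arbitrary units) for each member gene, with exocrine genes ordered by control signal to the left of the dashed line and islet hormones to the right. Grey squares are the saline control pool, red points the GALP pool with greater and blue points the GALP pool with less weight loss. For Cpb1 the control channels gave 36550 to 48000 units, the greater weight loss channels 2992 and 2340 and the less weight loss channels 63340 and 59820.

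Serine proteases break down dietary protein after activation in the gut. All 10 with a probe were called lower in the greater weight loss pool, with a median log2 ratio of -3.61. In the less weight loss pool 9 were called higher, with a median of 0.78. Of all 16320 gene names with signal, 130 were called lower in the former and 79 higher in the latter. Cela3b, an elastase, had signals of 34000, 27520, 25130 and 26750 in the 4 control channels. Its signal was 2081 and 1538 in the greater weight loss pool and 46080 and 54890 in the less weight loss pool. These levels did not overlap between the saline pool and either GALP pool. The channels of a pool carry the same extract, so this says nothing on the spread between mice. The log2 ratios of Cela3b were -4.03 and -4.16, then 0.87 and 1.04, which is 17.1-fold lower and 1.94-fold higher than saline.

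The other elastases had the same order of pools. Cela1 had log2 ratios of -3.61 and -3.84 in the greater and 0.91 and 0.76 in the less weight loss pool, and its second probe lay within 0.20 of it. Cela2a gave -3.33 and -3.58, then 0.62 and 0.80.

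Chymotrypsin-type proteases were lower by a smaller fold than Cela3b in the greater weight loss pool. Ctrb1, chymotrypsinogen B, had control signals from 8548 to 11970, with 1416 and 1010 in the greater and 20120 and 21760 in the less weight loss pool. Its log2 ratios were -2.67 and -3.08, then 0.75 and 1.02. Ctrl, the chymotrypsin-like protease, gave pool ratios of -2.91 and 0.77. Ctrc, which also trims trypsinogens, gave -3.49 and 0.73.

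Trypsinogens, the precursors of trypsin, which activates the other zymogens in the gut, were bright in every control channel. Prss3 had control signals from 28250 to 36920, with 2435 and 1815 in the greater and 49470 and 50920 in the less weight loss pool, and log2 ratios of -4.02 and 0.78. The 2210010C04Rik trypsinogen was lower still at -4.37 (20.7-fold), with 0.79 in the less weight loss pool. Prss2 gave -3.05 and 0.79. Try5 gave -3.73 and 0.57, and was the serine protease without a call in the less weight loss pool. Its fold there was 1.48, under the threshold, and 1 of its 2 arrays met the p-value.

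Carboxypeptidases remove amino acids from the end of peptides. Cpb1 had control signals from 36550 to 48000, with log2 ratios of -4.00 and -4.22 in the greater weight loss pool and 0.72 and 0.71 in the less weight loss pool. The pool folds of Cpb1 were 17.3-fold lower and 1.64-fold higher than saline. Cpa1, whose promoter is printed above, had control signals from 23760 to 37370, with 3682 and 2517 in the greater and 44360 and 42410 in the less weight loss pool. Its log2 ratios were -3.34 and -3.37, then 0.63 and 0.84, so both orders of dye gave nearly the same value in the greater weight loss pool.

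Lipases, their cofactor and amylase digest fat and starch. All 7 with a probe were called lower in the greater weight loss pool (median log2 ratio -3.74), against 130 of 16320 gene names with signal. In the less weight loss pool 4 were called higher (median 0.80), against 79 of 16320. Cel, the bile salt-activated lipase, had control signals from 18550 to 21830, with 1764 and 1363 in the greater and 35160 and 34250 in the less weight loss pool. The log2 ratios of Cel were -3.74 and 0.84. Clps, the colipase that holds pancreatic lipase on fat droplets in bile, gave pool ratios of -3.50 and 0.80.

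Pnlip, pancreatic triglyceride lipase, showed a larger gap between its dye orientations. Its log2 ratios were -3.54 and -4.25 in the greater and 1.09 and 0.59 in the less weight loss pool, and its other probe was 0.69 nearer to 0 in the greater weight loss pool. Pnliprp1, a related protein, gave -4.10 and 0.91. Amy2a5, pancreatic amylase, had control signals from 16510 to 19700 and log2 ratios of -3.86 and 0.49, without a call in the less weight loss pool. The phospholipase Pla2g1b had control signals from 339 to 478 and gave -2.88 and 0.47.

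Pnliprp2 was not well above background in the greater weight loss pool, so only a limit holds there. A limit sets the bright signal against the higher of the dim signal and the lowest signal well above background on that array, averaged on the log2 scale. By this measure Pnliprp2 was at least 5.39-fold lower than saline. The less weight loss arrays gave 0.95 and 0.25.

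Proteins of the granule and other secreted or secretory pathway products included 9 genes. All were called lower in the greater weight loss pool, against 130 of 16320 gene names with signal. In the less weight loss pool 4 were called higher, against 79 of 16320. Sycn, syncollin of the zymogen granule membrane, had control signals from 19080 to 26340, with 1816 and 1683 in the greater and 47420 and 48440 in the less weight loss pool. Its log2 ratio of 1.12 in the less weight loss pool was the highest among exocrine members, beside -3.81 in the greater weight loss pool. Zg16, another granule protein, gave -3.76 and 0.65.

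The dim members of this group are best read as limits. Cuzd1, a zymogen granule protein, was at least 9.45-fold lower than saline in the greater weight loss pool, with control signals from 220 to 237 and GALP signals of 8.59 and 6.87. Pdia2, a pancreatic disulfide isomerase, was at least 11.6-fold lower. Agr2, a relative of it found in mucous cells as well, was at least 4.17-fold lower.

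Gp2, the main membrane glycoprotein of zymogen granules, was well above background on 1 of the 2 greater weight loss arrays. Its log2 ratios there were -3.92 and -5.33, and its control signal itself ranged from 170 to 492, so its size is poorly fixed. Gp2 gave 0.47 and 0.16 in the less weight loss pool, with no p-value under the threshold.

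Klk1, Dmbt1 and Rnase1 were nearest to 0 in the greater weight loss pool among the 24 exocrine genes well above background in all 8 channels. Klk1, tissue kallikrein of kidney and salivary gland too, gave -2.54 and 0.67. Dmbt1, a mucin-like protein of several epithelia, gave -2.25 and 0.65. Rnase1, pancreatic ribonuclease, gave -2.70 and 0.54 with 1 probe and a log2 ratio lower by 1.35 in the greater weight loss pool with the other, so its size depends on the probe.

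The Reg genes encode secreted lectin-type proteins that acinar cells make. Reg1 had log2 ratios of -5.17 and -4.83 in the greater weight loss pool, a 32-fold difference and the lowest value among the 24 exocrine genes well above background in all 8 channels. Its control signals were 4731 to 6163 and its GALP signals 171 and 173 there, against 6754 and 6623 in the less weight loss pool. Although Reg1 was so low in the former pool, in the latter it differed from saline by 0.32 and 0.49, without a call. Reg2 was at least 2.38-fold lower in the greater weight loss pool, and its less weight loss arrays gave -0.11 and -1.90, which differ more than they depart from 0. Reg3d was at background in every channel.

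Insulin transcripts had the same directions with another balance between pools. Ins2, the main mouse insulin gene, had control signals of 132, 159, 198 and 221. Its signal was 9.74 and 8.17 in the greater weight loss pool, at background, and 1064 and 844 in the less weight loss pool. The levels of Ins2 did not overlap between the 3 pools, which again says nothing on the spread between mice. Ins2 was thus at least 5.81-fold lower than saline in the former and 4.53-fold higher in the latter, with log2 ratios of 2.42 and 1.93. The other Ins2 probe, whose target overlaps, gave a limit of 5.72-fold and 4.96-fold higher.

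Ins1, the retroposed copy of the gene, had control signals from 29.4 to 54.4, with 2 of the 4 control channels well above background. The limit for Ins1 was at least 1.42-fold lower than saline in the greater weight loss pool and 4.69-fold higher in the less weight loss pool, where its log2 ratios were 2.40 and 2.06. In the less weight loss pool the insulin ratios of 2.18 and 2.23 lay above the range of all exocrine genes, whose highest was 1.12. Ins2 and Ins1 probes held ranks 4, 5 and 6 from the highest of all probes there.

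Hormones of other islet cells were at background. Gcg (glucagon, alpha cells), Sst (somatostatin, delta cells), Ppy (pancreatic polypeptide) and Pyy (peptide YY) were well above background in 0 of 4 control channels. Ppy exceeded background on 1 less weight loss array, with log2 ratios of 2.10 and 0.43, and Pyy on 1 greater weight loss array, with -0.65 and 1.14 there and 1.78 and 0.81 on the less weight loss arrays. Since the control was at background for all 4 hormones, no direction is given.

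The spread among exocrine genes differed between the pools. Of these genes, 24 were well above background in all 8 channels. In the less weight loss pool they ranged from 0.40 to 1.12 with an SD of 0.16 over genes. The median gap between the dye orientations of a gene was 0.17 there. In the greater weight loss pool they ranged from -5.00 to -2.25 with an SD of 0.64, beside a median dye gap of 0.22. The SD is taken over means of 2 arrays and the gap lies between single arrays. The gap is thus not the technical error of that SD. The largest dye gaps were 0.49 in the less and 0.72 in the greater weight loss pool. The shift itself was smaller in the less weight loss pool, with a median of 0.75 against -3.73. The smaller SD there therefore does not show a more uniform shift. Both pools share the saline pool, so the ratios are set side by side only.

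The less weight loss pool can also be set against the greater, a difference that holds the saline pool in both terms. For the same 24 genes the less weight loss pool was higher by a median log2 difference of 4.33, which is 20.1-fold, from 2.91 in Dmbt1 to 5.4 in Reg1. The pattern of lower on both greater and higher on both less weight loss arrays held in 34 of 36 exocrine probes and in 1.58% of all probes.

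**Figure D3:**
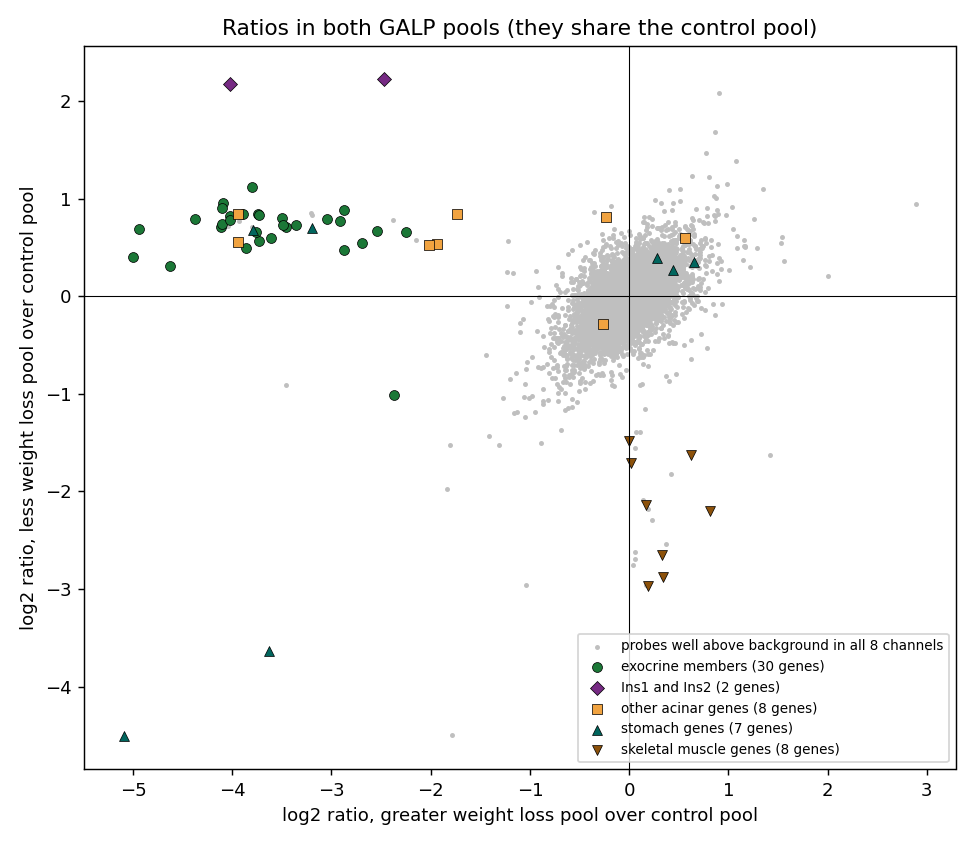
Log2 ratio in the greater (x axis) against the less weight loss pool (y axis), both over the same saline pool, with grey points for probes well above background in all 8 channels and coloured points for gene lists (1 probe per gene with signal). Exocrine members other than Reg2 form a group at the upper left, around -3.73 and 0.73, and Reg2 lies at -2.37 and -1.01. Ins1 and Ins2 lie above the group at 2.23 and 2.18 on the y axis, and skeletal muscle genes lie at the lower right.

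The saline pool was measured on every array, so its stability can be seen directly. Between the arrays of the less and the greater weight loss pool, the control signal of 35 exocrine probes differed by a median of -0.09 on the log2 scale (range -0.95 to 0.37). The central 95% of 14943 probes with control signal ran from -0.43 to 0.48. Gp2 at -0.95 and Ins2 at 0.54 were outside it. In each exocrine gene with signal the difference was smaller than its ratio in the greater weight loss pool. Against the smaller ratios of the less weight loss pool, Gp2 was the exception, with a ratio of 0.31. Other differences were not small beside these ratios, as in Ctrc with -0.36 and a ratio of 0.73.

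Over both pools together the members gave no call. The test was limma on the mean of the 2 pool ratios with Benjamini-Hochberg adjustment. It called 0 of 45 member probes and 0.0% of all probes, with 0 member probes and 4759 of 41037 probes at an unadjusted p under 0.05, and the smallest adjusted p of a member was 0.59. In 32 of 34 members with signal the SD over the 2 pools was larger than the mean, as in Cela3b at -1.57 ± 3.57 (SD, n = 2 pools). With 1 residual degree of freedom this count says nothing on stability.

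Other acinar genes outside the set were examined from a list of 13, of which 8 had signal. This list too was chosen with earlier results of these data known. Their median log2 ratios were -1.84 and 0.58. In the greater weight loss pool 3 were called lower, against 130 of 16320 gene names with signal. Serpini2, a pancreatic serpin, gave -3.94 and 0.55. Bhlha15 (Mist1), a transcription factor of secretory cells, was at least 2.72-fold lower in the greater weight loss pool, where it was at background, and gave 0.54 in the less weight loss pool. Nr5a2, a nuclear receptor of acinar cells and hepatocytes alike, was near 0 at -0.26 and -0.28.

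Markers of other cells were read from the same arrays. Of 23 other islet genes 6 had signal in some channel and 1 in all 4 control channels. The medians over all 23 were 0.00 in both pools, and those over the 6, which such a filter can pull toward the pool where they are high, were -0.15 and 0.43. In the less weight loss pool these 6 islet genes ranged from -0.57 to 1.97, and 5 were higher than saline. Of them 1 was called higher there, against 79 of 16320 gene names with signal. Of 8 duct genes, which bile ducts share, 6 had signal, with medians of -0.19 and 0.01. Among them Krt19 gave -0.82 and -0.10, and Spp1 gave -0.18 and 0.37.

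Some stomach genes had the same order of pools as the exocrine genes and others did not. Of 15 listed, 7 had signal, with medians of -3.19 and 0.35, while the medians over all 14 with a probe were 0.0 and 0.18. In the greater weight loss pool 4 of the 7 were lower than saline and 3 were higher. Tff2, a trefoil factor, gave -3.79 and 0.68, and Gkn3, a gastrokine, -3.19 and 0.70. Gkn2 and Tff1 were lower in both pools, at least 11.0-fold and 6.58-fold for Gkn2, and 12.4-fold and at least 9.23-fold for Tff1. The summed signal of the stomach list was 3568 to 4382 in the control channels, 426 to 488 in the greater and 5391 to 5997 in the less weight loss pool. In the control channels this sum lay mostly in Tff2 (1820 to 2299) and Gkn3 (961 to 1352). In the less weight loss pool it lay mostly in Tff2 (3671 and 3152) and Gkn3 (2135 and 1823). The sum therefore does not describe the list as a whole. The part of stomach genes in the pancreatic result was not tested.

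Intestinal and muscle genes had other patterns. The 12 intestinal genes with signal had medians of -1.02 and -0.69, and all 27 with a probe -0.39 and -0.01. The 8 skeletal muscle genes with signal had medians of 0.26 and -2.17, so the less weight loss pool, in which pancreatic transcripts were higher than in saline, held less muscle signal. Tnnt3, a fast muscle troponin, gave 0.34 and -2.88. Adipose genes had no settled direction, since the 5 with signal had medians of 0.38 and -0.26 and all 8 with a probe -0.26 and 0.14. In the greater weight loss pool 2 of them, Cfd at -0.89 and Cidea at -0.67, were called lower, against 130 of 16320 gene names with signal. Genes of B and T cells had medians of -0.03 and -0.33 over the 6 with signal and -0.03 and -0.09 over all 8.

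**Figure D4:**
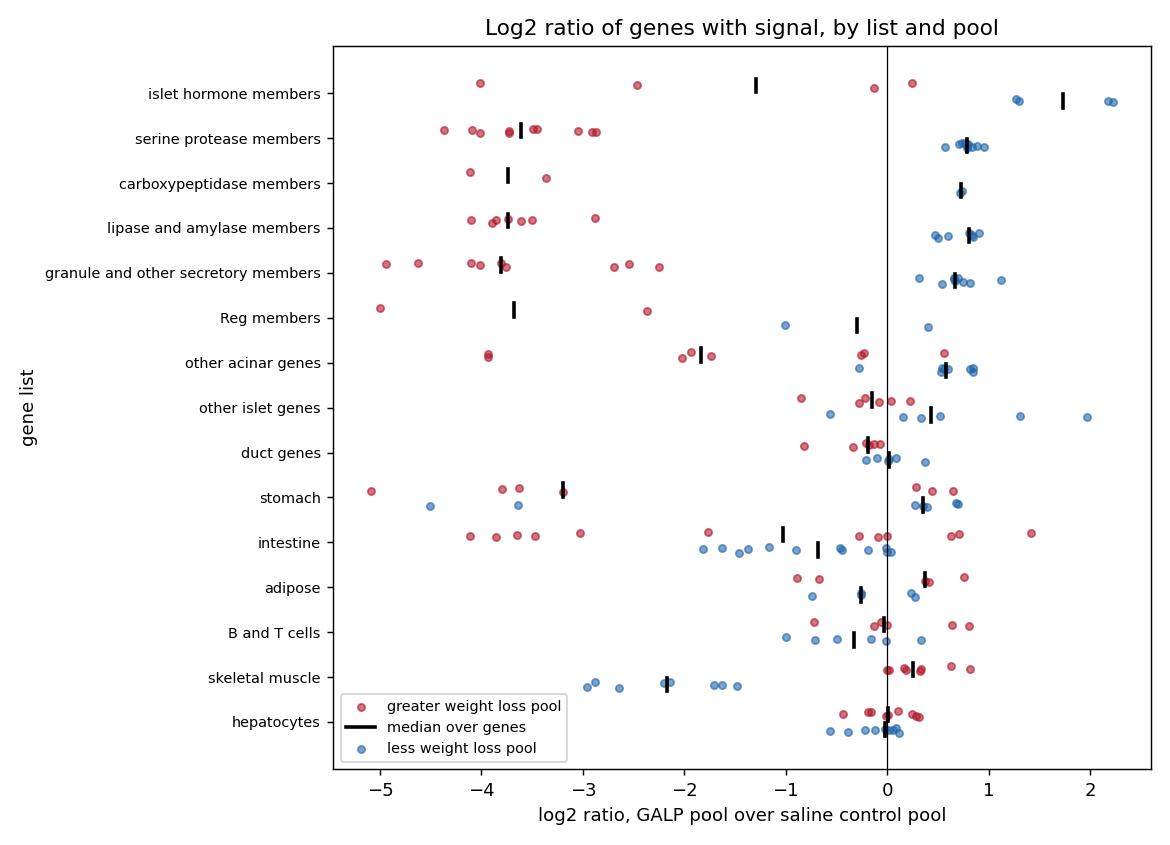
Log2 ratio of each gene with signal over the saline pool (x axis) by gene list (y axis), with red points for the greater and blue points for the less weight loss pool and a black bar at the median over genes. The enzyme and granule members lie at medians between -3.61 and -3.81 in the greater weight loss pool, other acinar genes at -1.84 and hepatocyte genes at 0.00.

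Probes outside the set shared the opposite calls in a few cases. Of 41037 probes, 32 were called lower in the greater and higher in the less weight loss pool, and 26 of them were member probes. The other 6 included Tff2, Gkn3 and Spink1, a trypsin inhibitor of acinar cells, which was named after its values were seen.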

How the data were processed

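Liver RNA of 2 GALP pools was compared with 1 saline pool on 4 dual-colour arrays. The authors scanned the slide, and Agilent Feature Extraction (12.0.3.1 per the file headers, 11.0.1.1 per the labels) corrected for background and applied LOWESS dye normalization. The processed signals of both channels are the deposited intensity values. Their log10 ratio, Cy5 over Cy3, was deposited for every spot together with a p-value from the software's error model, which sets the extracts of a single array against each other. The authors deposited a table of log10 ratios for the whole series as well, already turned to GALP over control, and it served as an alternative. The deposited error of the log10 ratio was used in simulation only.

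After conversion to log2, every ratio was expressed as GALP over control. Outlier spots were dropped, a probe took the mean ratio and the highest p-value of its spots, and a pool took the mean of its 2 arrays, which carry the same extracts. Although the labels name a weight loss group beside each control, 1 saline pool of 8 mice is described, and it was treated as such. Precision is limited by the number of arrays, each with 43379 spots. A probe was called by the threshold of the methods. The fold had to be over 1.5 or under 0.75 in the pool mean. The p-value had to be under 0.01 on every array of the pool, in the same direction. Genes in lists were represented by the probe with the highest mean signal, and genes at background in every channel were left out of medians. For testing, lmFit and eBayes of limma 3.58.1 (R 4.3.3) were fitted over 41037 probes. The rule and the test were tested on simulated data.

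The members and the gene lists were chosen with earlier results of these data known. All members with a probe are named or counted, and of other lists up to 4 genes with the largest mean absolute log2 ratio were eligible. Alternatives were normexp with an offset of 50 and loess, centring, the series table, outlier spots kept, a signal filter, other p-value rules, each dye orientation, each pool left out, all probes of a gene, all genes on the array and an intensity trend. Software was pandas 2.3.3, numpy 2.4.6 and matplotlib 3.10.9 in Python 3.11.15, scipy 1.17.1 for the simulation, and version 1.17.8 of the R package data.table. Probe positions are on mm9. The values of some genes of the other lists are not reported here.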

Additional observations from a re-analysis of the deposited data

Results flagged for a closer look

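In 31 member genes every array of the greater weight loss pool was lower than saline and every array of the less weight loss pool was higher. The difference between the pools was not tested. It is given below as the log2 ratio in the less minus that in the greater weight loss pool, and for Ins1, Ins2, Pnliprp2, Cuzd1, Pdia2 and Agr2, which were at background in the latter, it depends on the signal at background, fixes no size and is not ranked.

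Among insulin genes the difference was 4.69 for Ins1 and 6.20 for Ins2. Among serine proteases it was 4.56 for Cela1, 4.17 for Cela2a, 5.05 for Cela3b, 3.76 for Ctrb1, 3.68 for Ctrl and 4.22 for Ctrc. Among trypsinogens it was 3.84 for Prss2, 4.80 for Prss3, 4.3 for Try5 and 5.16 for 2210010C04Rik. The carboxypeptidases gave 4.09 for Cpa1 and 4.82 for Cpb1.

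The lipases gave 4.74 for Pnlip, 5.01 for Pnliprp1, 4.21 for Pnliprp2 and 4.58 for Cel. Colipase Clps gave 4.3, phospholipase Pla2g1b 3.35 and amylase Amy2a5 4.36. Of the granule proteins Sycn gave 4.93, Gp2 4.94, Cuzd1 5.63 and Zg16 4.42. The remaining genes were Rnase1 at 3.24, Klk1 at 3.21, Pdia2 at 4.85, Agr2 at 4.84, Dmbt1 at 2.91 and Reg1 at 5.4.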

How the results depend on the processing

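Across the alternatives, 34 to 39 member probes were called lower in the greater weight loss pool (36 as reported) and 24 to 34 higher in the less weight loss pool (27 as reported). No median changed sign. With normexp the median log2 ratio of members was -2.67 in the greater and 0.60 in the less weight loss pool, and with limits in place of ratios, an alternative added after the values were seen, it was -3.47 in the former. In the less weight loss pool it was 0.73 with GALP in Cy5, and 0.74 with GALP in Cy3, with the signal filter, with the mean of all probes and with all genes on the array, in place of 0.76. These shifts exceed the SD between dye orientations, which was 0.008 there.

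Reg2 was the 1 member called lower in both pools, and in the less weight loss pool, without the p-value, with the p-value on 1 array per pool or with GALP in Cy3 alone. Pyy was the 1 member called higher in the greater weight loss pool with GALP in Cy3 alone. Leaving out 1 pool gave 0 to 36 probes lower and 0 to 27 higher, since the remaining pool then decides. By limma 0 member probes were called in each alternative, and 95 of all probes with normexp and 1 with the signal filter against 0. The cause of these changes was not tested. No paired analysis was possible because the pools share 1 control sample and the labels number no replicates. Signal over background limits the insulin, Cuzd1, Pdia2, Agr2, Pnliprp2 and Reg2 ratios in the greater weight loss pool.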
